A study of Mus musculus with 18 samples.

Results

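The genes described here encode the hypoxia-inducible factors (HIFs) and the enzymes that tie them to oxygen, measured in mouse CD8+ T cells that had been activated with antigen and then given a common gamma chain (γc) cytokine. There are 8 of them among 18194 genes on the arrays: the factor subunits Hif1a, Epas1 and Arnt, the oxygen sensors Egln1, Egln2, Egln3 and Hif1an, and the ubiquitin ligase subunit Vhl. All probe sets annotated to these symbols were taken, 21 of 45101, and the probe set with the highest mean over the 18 arrays stands for its gene. That choice used the mean over all arrays and no contrast between groups. The genes themselves were listed with earlier results of these arrays known, among them a high level of Epas1 with IL-4, so the levels of Epas1 with IL-4 are described without a test.

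The HIFs are heterodimeric transcription factors. An alpha subunit, HIF-1α from Hif1a or HIF-2α from Epas1, pairs with the constitutive beta subunit from Arnt and binds hypoxia response elements in the genes of glycolysis, glucose uptake, angiogenesis and mitophagy. In the presence of oxygen the prolyl hydroxylases from Egln1, Egln2 and Egln3 mark the alpha subunits for the VHL ligase, which sends them to the proteasome, and the asparagine hydroxylase from Hif1an (known as FIH) blocks their contact with coactivators. Egln1 and Egln3 are themselves known HIF targets, and in T cells HIF-1α is also raised by T cell receptor and mTOR signals without hypoxia. The arrays measure mRNA, and the protein and hydroxylation steps at which HIFs are mainly controlled were not measured on them.

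Naïve CD8+ T cells with the OT-I receptor, a transgene specific for an ovalbumin peptide, came from male mice of the OT-I Thy1.1 TCR Tg strain and were primed for 48 hours with irradiated, peptide-pulsed splenocytes of C57BL/6 mice. The harvested cells were then cultured for 24 hours in complete media alone (media control) or with a recombinant mouse cytokine (IL-21, IL-15, IL-7, IL-4 or IL-2) at 100 ng/ml. Each of the 6 groups has 3 biological replicates, each on its own Affymetrix Mouse 430 2.0 array. RNA of replicate 3 was prepared with TRIzol and Direct-zol, that of the other replicates with RNeasy. No oxygen level other than that of the culture was compared, and no group lacks a gene. Because the cells were measured in bulk, fewer cells expressing a gene and less RNA per cell cannot be told apart.

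Levels are log2 values, deposited after RMA processing by the authors, that were quantile normalized again here, since 3 arrays, replicate 3 of the IL-15, IL-2 and media control groups, lay lower over the whole array in the deposited values (medians of 4.47 to 4.52, against 5.76 to 5.84 on the other 15 arrays). A change is the difference of 2 group means on that scale, where 1 is a doubling, and it is given with its standard error (SE) from a limma fit over all 18 arrays. The adjusted p is from limma, two-sided, with Benjamini-Hochberg adjustment over all genes of a comparison and a threshold of 0.05. Arrays with the same replicate number deviated together, so limma was also fitted with the replicate number as a block, and for the 8 genes its adjusted p is given where it changes a call, for lists its counts. All comparisons with media control share the same 3 control arrays. Of the CD8 T cell markers 9 of 9 measured genes lay above the background level of 6.68, which is the 95th percentile of 37 genes of other tissues. Of these markers 6 were lower with IL-2 than in media control (Cd5, Cd3e, Cd8b1, Cd3g, Cd3d and Zap70), where 15.8% of all genes passed. With IL-4, 3 were lower (Cd2, Cd3e and Cd5, beside 9.07% of all genes). Cd5 alone was lower with IL-7 (1.68% of all genes) and with IL-21 (6.67%). The summed level of the 9 markers was 15.64 to 15.88 in media control and 14.97 to 15.25 with IL-2. It was 15.35 to 15.59 with IL-4, 15.38 to 15.60 with IL-7, 15.53 to 15.72 with IL-21 and 15.57 to 15.78 with IL-15. The summed myeloid markers were highest in media control (9.73 to 12.22), led by Lyz2 at 11.54 in replicate 2, and ranged from 9.05 to 9.45 with IL-2. Whether these differences have a part in the results was not tested.

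On build GRCm38.p6 of the mouse genome the factor genes lie at chr12:73901324-73947554 (Hif1a), chr17:86753864-86833410 (Epas1) and chr3:95434367-95497240 (Arnt). The sensor genes lie at chr8:124908587-124949254 (Egln1), chr7:27158658-27166802 (Egln2), chr12:54178981-54203874 (Egln3) and chr19:44562854-44576274 (Hif1an), and Vhl lies at chr6:113623994-113631634. The 21 probe sets number 4 for Hif1a, 5 for Arnt, 3 for Hif1an, 1 for Egln2 and 2 for each of the others, of which 13, with all 8 main ones, lay above the background level. The promoters of Egln3, Egln1 and Hif1a are printed. Egln1 and Egln3 are known targets of the factors that they restrain, so the sequence to which HIFs bind is of interest beside their levels. RefSeq start sites of 7 of the 8 genes gave 8 windows, each from 250 bases before to 50 bases after a start site on build GRCm38.p6. The core of the hypoxia response element was searched as ACGTG and as GCGTG on both strands, and capitals mark each match. The palindrome CACGTG matches on both strands and counts as 2 overlapping matches.
Egln3, chr12:54203825-54204124, minus strand: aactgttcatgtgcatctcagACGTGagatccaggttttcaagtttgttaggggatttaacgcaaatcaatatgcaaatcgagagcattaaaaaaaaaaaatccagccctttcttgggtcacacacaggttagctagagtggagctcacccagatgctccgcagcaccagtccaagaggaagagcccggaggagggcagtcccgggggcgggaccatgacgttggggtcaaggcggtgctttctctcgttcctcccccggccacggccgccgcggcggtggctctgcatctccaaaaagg
Egln1, chr8:124949205-124949504, minus strand: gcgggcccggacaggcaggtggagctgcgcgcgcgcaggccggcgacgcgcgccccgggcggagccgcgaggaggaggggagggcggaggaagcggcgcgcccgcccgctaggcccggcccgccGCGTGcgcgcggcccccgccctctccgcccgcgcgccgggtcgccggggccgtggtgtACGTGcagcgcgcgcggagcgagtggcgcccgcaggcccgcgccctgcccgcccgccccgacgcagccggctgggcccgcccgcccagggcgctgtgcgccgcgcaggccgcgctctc
Hif1a, chr12:73907617-73907916, plus strand: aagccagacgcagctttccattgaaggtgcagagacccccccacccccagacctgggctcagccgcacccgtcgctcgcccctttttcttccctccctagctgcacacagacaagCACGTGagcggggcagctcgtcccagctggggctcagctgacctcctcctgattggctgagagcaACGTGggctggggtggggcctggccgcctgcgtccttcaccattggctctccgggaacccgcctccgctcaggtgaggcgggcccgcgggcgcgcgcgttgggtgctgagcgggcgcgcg
The Egln3 window holds 1 core, ACGTG, which begins at position -229 from the start site. The Egln1 window, with a GC content of 86%, holds a GCGTG at -126 and an ACGTG at -68. The Hif1a window holds the palindrome from -135 and a further ACGTG at -70. Of the windows not printed, that of Egln2 from chr7:27166753 holds 3 matches of ACGTG and 3 of GCGTG. The Egln2 window from chr7:27165679 and the Arnt window each hold 1 GCGTG. A core was present in 6 of the 8 windows, those of Vhl and Hif1an being without, and in 43.8% of 32851 windows of all genes, so the match alone sets the genes little apart. The STAT motifs TTCNNNGAA and TTCNNNNGAA, searched on both strands, were present in 8.3% and 6.95% of all windows. The first was in none of the 8 windows, and the second was in those of Hif1a and Hif1an. A match is a string of letters in these windows and not a measured site.

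Egln3 rose with 4 cytokines, Epas1 was high with IL-4, and the other 6 genes had no change that passed without the block. In that fit, 1 of 8 genes passed with IL-2, where 15.8% of all genes did, and 1 of the 8 with IL-4, where 9.07% did, Epas1 being left out of that count. The IL-21 comparison held 1 of the 8 (6.67% of all genes), that of IL-7 held 1 (1.68%) and that of IL-15 held 0 (0%), all with a higher level. The gene was Egln3 in each. With IL-15, 1 of the 8 and 390 of all genes had an unadjusted p under 0.05 in limma, and with the block, where 1566 of all genes did, again 0 of the 18194 genes passed. The difference between the highest and the lowest group mean was 4.88 for Epas1 and 2.91 for Egln3, while the median gene had a range of 0.38. The Epas1 range is its level with IL-4, known when the genes were listed. The ranges of Egln1 (0.75), Hif1a (0.52), Arnt (0.42), Egln2 (0.32), Hif1an (0.25) and Vhl (0.22) lay nearer to that median.

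**Figure D1:**
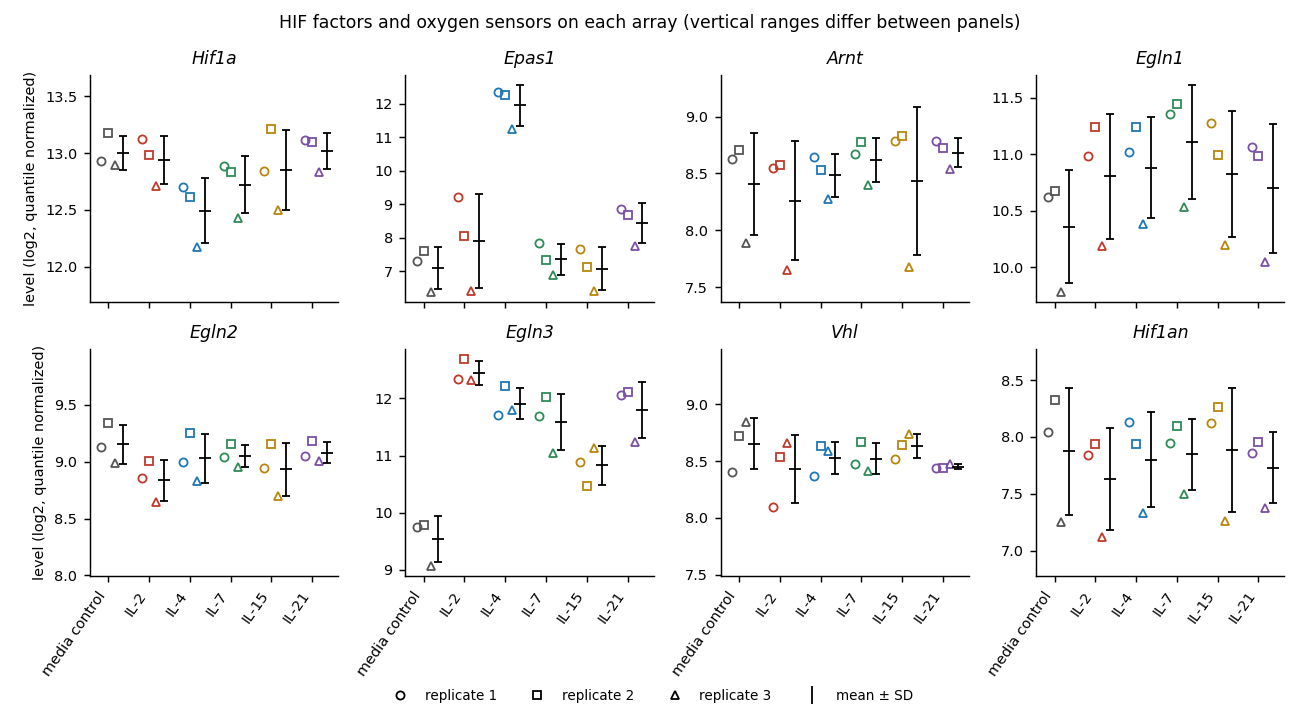
Level of each gene (vertical axis, log2, quantile normalized, 1 probe set a gene) on the 18 arrays by group (horizontal axis). Replicates 1, 2 and 3 are drawn as circles, squares and triangles, and the bars beside them are mean ± SD (n = 3). The 3 IL-4 arrays of Epas1 lie at 11.24 or higher and every other array at 9.21 or lower, and the media control arrays of Egln3 lie below all others.

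Epas1, which encodes HIF-2α, had its highest level with IL-4. Its levels with IL-4 were 12.35, 12.25 and 11.24 in replicates 1, 2 and 3, a mean of 11.95 ± 0.61 (SD, n = 3). In media control they were 7.30, 7.61 and 6.39, a mean of 7.10 ± 0.63. No IL-4 array overlapped with any array of another group. The difference between these means was 4.85 (SE 0.57), a 28.8-fold higher level, and within replicates 1, 2 and 3 it was 5.06, 4.64 and 4.84. Replicate 3 of media control lay under the background level of 6.68, as did replicate 3 of IL-2 and of IL-15, so the fold and the difference within replicate 3 are not exact. Against the other cytokines, Epas1 with IL-4 was higher by 3.51 than with IL-21, by 4.59 than with IL-7, by 4.88 than with IL-15 and by 4.05 than with IL-2. A second Epas1 probe set, with lower levels, gave 8.59, 8.87 and 8.50 with IL-4 and 5.75, 5.40 and 5.30 in media control. Its control values are under the background level, so no size of a difference is read from it.

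With IL-21 the Epas1 levels were 8.87, 8.67 and 7.76 (mean 8.43 ± 0.59). Each lay above all 3 control arrays, as was so for 10.1% of all genes. The change of 1.33 (SE 0.57) did not pass without the block (adjusted p = 0.225) and did with it (adjusted p = 0.00299). With IL-2 the Epas1 levels were 9.21, 8.06 and 6.42, with the widest spread of any group (SD 1.40). Replicate 1 differed from its control by 1.92, replicate 2 by 0.45 and replicate 3 by 0.03. As deposited, Epas1 was the same, 5.29, on each of the 3 arrays that lay lower, so the 0.03 arose in the quantile normalization. The mean change was 0.80 (SE 0.57, adjusted p = 0.498, with the block 0.039). Without replicate 1 of every group it was 0.24 and without replicate 3 it was 1.19 (adjusted p = 0.0304). Epas1 with IL-7 (7.83, 7.34 and 6.89) and with IL-15 (7.68, 7.13 and 6.40) overlapped with media control, with changes of 0.25 and -0.03. The 95% interval for IL-7 was -0.97 to 1.48 and that for IL-15 was -1.25 to 1.19. In order of their means the groups ran IL-4, IL-21, IL-2, IL-7, media control and IL-15, and from IL-21 downwards neighbours overlapped. Replicate 3 was the lowest of the 3 in all 6 groups.

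Endothelium is a tissue in which Epas1 is strongly expressed, and its markers were read beside the level with IL-4. Of 13 endothelial markers 3 lay above the background level. Of these Pecam1 had a mean of 7.80 in media control and 6.79 with IL-4, Eng 8.53 and 8.03, and Egfl7 7.44 and 7.82, none of which passed without the block, while Pecam1 (adjusted p = 0.00232) and Eng (0.00839) were lower with IL-4 with it. Cdh5, Tie1 and Emcn were under the background level in every group mean, and the summed level of the list was 9.79 to 10.10 with IL-4 and 9.84 to 10.86 in media control. The summed myeloid list was 9.16 to 9.77 with IL-4, against 9.73 to 12.22 in media control.

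Hif1a, which encodes HIF-1α, was at a high level in every group. In media control it was 12.93, 13.17 and 12.89 (mean 13.00 ± 0.15) and with IL-4 12.70, 12.61 and 12.17 (mean 12.49 ± 0.28). All 3 IL-4 arrays lay below all 3 control arrays, and 24.4% of all genes had no overlap between these groups, in either direction. The change of -0.50 (SE 0.19, 95% interval -0.92 to -0.09) did not pass without the block (adjusted p = 0.136) and did with it (adjusted p = 0.00356), and on the values as deposited it was -0.10. Against IL-21, the group with the highest Hif1a mean (13.02 ± 0.16), the level with IL-4 was lower by 0.52 (adjusted p = 0.223, with the block 0.00532). The lowest Hif1a mean was that with IL-4 after quantile normalization, and as deposited that with IL-15 (12.64, against 12.69 with IL-4). With IL-2, IL-7, IL-15 and IL-21 the Hif1a changes from media control were -0.06, -0.28, -0.15 and 0.02 (SE 0.19), none passed in either fit, and the 95% intervals lay within -0.69 and 0.43. The 3 IL-7 arrays too lay below all 3 control arrays, but narrowly (highest 12.89, lowest control array 12.8944). With IL-7, 19.2% of all genes had no overlap with media control, in either direction. On the values as deposited the Hif1a changes with IL-7 and IL-21 were 0.11 and 0.41. The second Hif1a probe set gave -0.55 (SE 0.43) with IL-4 and the third, also above the background level, -0.08 (SE 0.55) with IL-4 and 0.48 with IL-2. The remaining probe set, under the background level, had positive values with all 5 cytokines (0.46 to 1.12), none of which passed.

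Arnt, the beta subunit that both alpha subunits need, had levels of 8.63, 8.71 and 7.89 in media control and group means between 8.26 (IL-2) and 8.68 (IL-21). No comparison with media control passed in either fit, with changes of -0.15 to 0.28 (SE 0.31). Of its other 4 probe sets, 1 passed with IL-2 (limma, adjusted p = 0.0167 over all probe sets), with means of 5.95 in media control and 6.65 with IL-2, both under the background level, so no change is read from it.

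**Figure D2:**
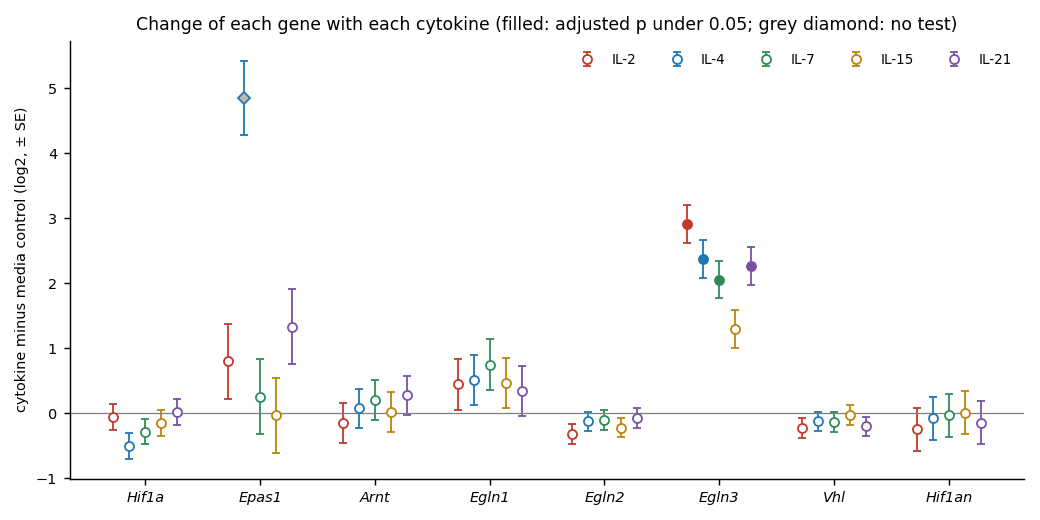
Change of each gene (horizontal axis) with each cytokine against media control (vertical axis, log2), with its SE. Filled circles have a limma adjusted p under 0.05 without the block, open circles do not, and the grey diamond, Epas1 with IL-4 at 4.85, is described without a test. The filled circles are Egln3 with IL-2, IL-4, IL-7 and IL-21.

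Among the oxygen sensors, Egln3, the prolyl hydroxylase PHD3, rose with IL-2, IL-4, IL-7 and IL-21. Its levels in media control were 9.74, 9.79 and 9.07 (mean 9.53 ± 0.40). With IL-2 they were 12.34, 12.69 and 12.31 (mean 12.45 ± 0.21), and those of IL-4 were 11.71, 12.21 and 11.79 (mean 11.91 ± 0.27). With IL-7 they were 11.70, 12.02 and 11.04 (mean 11.59 ± 0.50), and with IL-21 12.06, 12.11 and 11.23 (mean 11.80 ± 0.49). Each of these 12 arrays lay more than 1 log2 unit above every control array. All 3 arrays lay above all control arrays, by any margin, for 12.9% of all genes with IL-2 and 12.5% with IL-4. The shares were 9.07% with IL-7 and 10.1% with IL-21. IL-2 gave the greatest Egln3 rise, 2.91 or 7.54-fold (SE 0.29, adjusted p = 1.4e-05). It was 2.37 or 5.19-fold for IL-4 (adjusted p = 1.1e-04), 2.27 or 4.81-fold for IL-21 (adjusted p = 1.5e-04) and 2.05 or 4.15-fold for IL-7 (adjusted p = 0.00328). The IL-7 call was lost without replicate 1 of every group (adjusted p = 0.256) and without replicate 2 (adjusted p = 0.152), with changes of 2.12 and 1.99.

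With IL-15 the Egln3 levels were 10.88, 10.47 and 11.13 (mean 10.83 ± 0.34). All lay above the control arrays, as was so for 1.8% of all genes, and below every IL-2 and IL-4 array. The change of 1.29 (SE 0.29, 95% interval 0.68 to 1.91) had an unadjusted p of 4.1e-04 and an adjusted p of 1 (0.158 with the block), in a comparison where no gene passed. Within replicates 1, 2 and 3 it was 1.14, 0.68 and 2.07, a wide spread. Between cytokines, Egln3 with IL-2 was higher than with IL-15 by 1.62 (SE 0.29, adjusted p = 0.00235), and this call was lost without replicate 1 (adjusted p = 0.118) or replicate 2 (adjusted p = 0.103) of every group, with differences of 1.72 and 1.33. The differences of IL-4 and IL-21 from IL-15, 1.08 (adjusted p = 0.0513) and 0.97 (adjusted p = 0.0879), passed with the block only (adjusted p = 0.0071 and 0.0141), as did that of IL-2 from IL-7, 0.86 (adjusted p = 0.202, with the block 0.031). In order of their means the groups ran IL-2, IL-4, IL-21, IL-7, IL-15 and media control. IL-2 and IL-4, and IL-15 and media control, were neighbours without overlap, and IL-4, IL-21, IL-7 and IL-15 overlapped from one to the next.

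The second Egln3 probe set gave the same picture at a lower level, with changes of 2.87, 2.31, 2.03, 2.19 and 1.35 for IL-2, IL-4, IL-7, IL-21 and IL-15 (SE 0.34). All but that with IL-15 passed over all probe sets (limma, adjusted p = 8.1e-05, 8.0e-04, 0.0153 and 0.00128 in that order). Both probe sets thus had nearly equal changes with each cytokine.

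**Figure D3:**
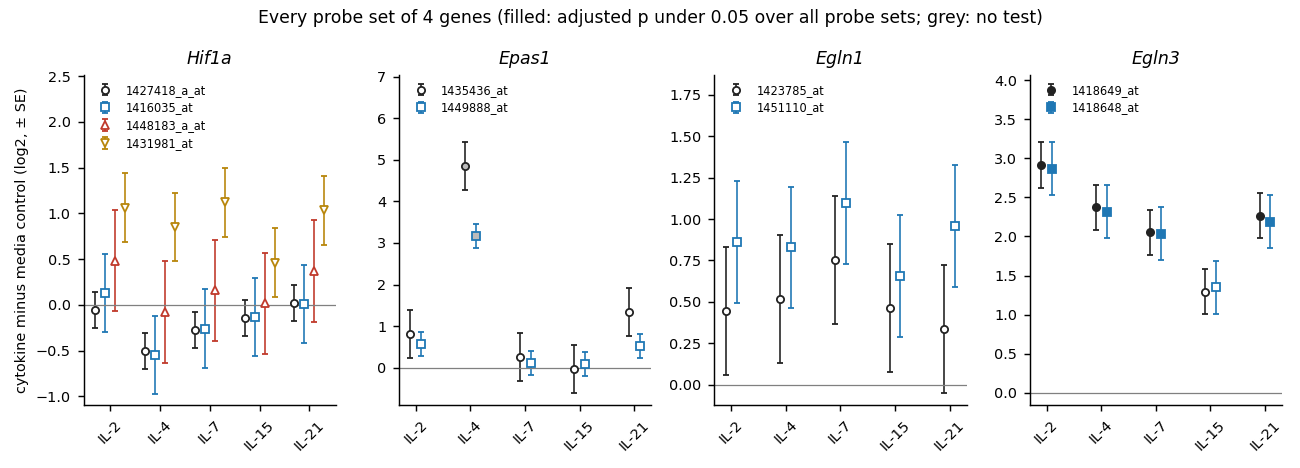
Changes of every probe set of Hif1a, Epas1, Egln1 and Egln3 with each cytokine against media control (vertical axis, log2, with SE), 1 colour and shape a probe set. Filled symbols passed the test over all probe sets and grey ones, Epas1 with IL-4, are described without a test. Both Egln3 probe sets have nearly equal changes, from 1.29 to 2.91, and both Epas1 probe sets are highest with IL-4.

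Egln1, the prolyl hydroxylase PHD2 and the main sensor for HIF-1α in most cells, was higher with every cytokine in each replicate, by small amounts. Its levels in media control were 10.62, 10.67 and 9.79 (mean 10.36 ± 0.50), and with IL-7, its highest group, 11.35, 11.44 and 10.53 (mean 11.11 ± 0.50). Replicate 3 was the lowest in all 6 groups and the groups overlapped, while the differences from the control of the same replicate number with IL-7 were 0.73, 0.77 and 0.75. The mean change was 0.75 for IL-7, 0.52 for IL-4, 0.46 for IL-15, 0.44 for IL-2 and 0.34 for IL-21 (SE 0.39), and none passed without the block (adjusted p from 0.406 to 1). With the block, those with IL-7 (adjusted p = 6.6e-04), IL-4 (0.00143), IL-2 (0.00285) and IL-21 (0.0256) passed and that with IL-15 (0.29) did not. A second Egln1 probe set gave 1.10 for IL-7, 0.96 for IL-21, 0.86 for IL-2, 0.83 for IL-4 and 0.66 for IL-15 (SE 0.37), none of which passed without the block.

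**Figure D4:**
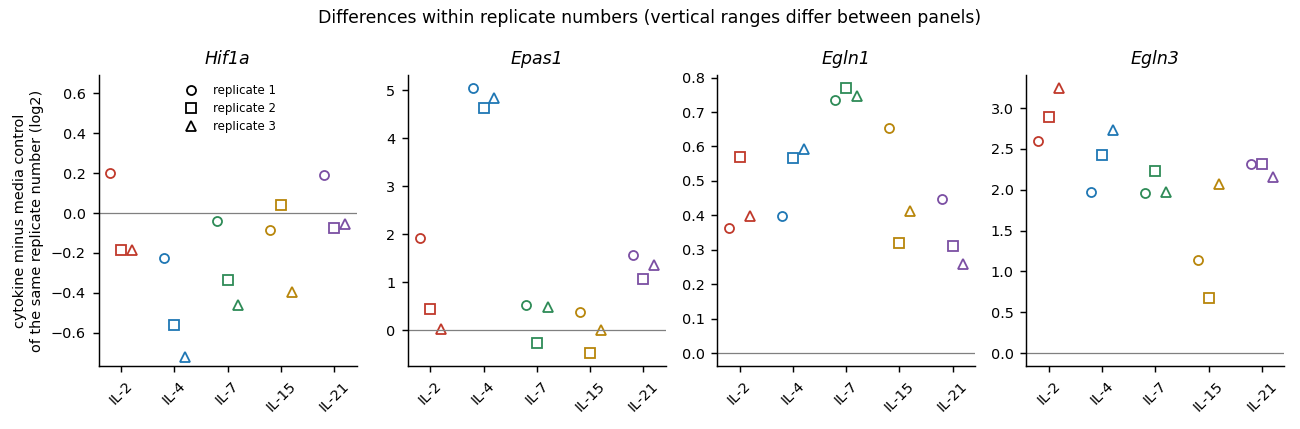
Difference from the media control array of the same replicate number (vertical axis, log2) for Hif1a, Epas1, Egln1 and Egln3 with each cytokine, with circles, squares and triangles for replicates 1, 2 and 3. All 15 differences of Egln1 and of Egln3 lie above 0, and those of Epas1 with IL-2 run from 0.03 to 1.92. The 0.03, of replicate 3, is between arrays with equal deposited values.

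Egln2, the prolyl hydroxylase PHD1, was 9.13, 9.34 and 8.99 in media control (mean 9.15 ± 0.18) and with IL-2 8.86 in replicate 1, 8.65 in replicate 3 and between its controls' lowest and middle values in replicate 2 (mean 8.84 ± 0.18). Each IL-2 array was lower than its own control, by 0.27, 0.34 and 0.34, and the highest IL-2 array lay just above the lowest control array. The change of -0.32 (SE 0.15) did not pass without the block (adjusted p = 0.199) and did with it (adjusted p = 0.0052), in the direction opposite to Egln3. With the other cytokines the changes were -0.22 (IL-15) to -0.07 (IL-21). Hif1an, which encodes FIH, had levels of 8.04, 8.33 and 7.25 in media control and group means from 7.63 (IL-2) to 7.88 (IL-15). Vhl had levels of 8.40, 8.72 and 8.84 in media control and group means from 8.43 (IL-2) to 8.65 (media control). Neither gene had a change from media control that passed in either fit, and their 95% intervals with all 5 cytokines lay within -0.94 and 0.71 for Hif1an and within -0.55 and 0.30 for Vhl.

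With the block, 4 of the 8 genes passed with IL-2 (Egln3, Egln1 and Epas1 higher, Egln2 lower), where 30.6% of all genes did, and 3 with IL-4 (Egln3 and Egln1 higher, Hif1a lower), where 25.8% did, Epas1 being left out. The numbers were 2 with IL-7 (Egln3 and Egln1, 16.3% of all genes), 0 with IL-15 (0%) and 3 with IL-21 (Egln3, Egln1 and Epas1, 21.1%). Over the 10 pairs of cytokines, with the 4 differences of Epas1 from IL-4 left out, 1 difference passed without the block, that of Egln3 between IL-2 and IL-15, where 8.6% of all genes passed. No other member passed between IL-4 and IL-2, IL-7, IL-15 or IL-21, where 2.07%, 1.34%, 3.64% and 3.81% of all genes did. With the block, 12 such differences passed, 4 of them of Egln3.

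Of the other 8, Hif1a was lower with IL-4 than with IL-2 by 0.45 (adjusted p = 0.41, with the block 0.0172, where 10.6% of all genes passed), than with IL-15 by 0.36 (adjusted p = 0.492, with the block 0.0447, 14.1%) and than with IL-21, as given above (11.7%). Epas1 was higher with IL-21 than with IL-15 by 1.36 (adjusted p = 0.315, with the block 0.00399, 12.6%) and than with IL-7 by 1.08 (adjusted p = 0.629, with the block 0.0233, 8.89%), and with IL-2 it exceeded its IL-15 mean by 0.83 (adjusted p = 0.593, with the block 0.0429, 22.4%). Egln1 was higher with IL-7 than with IL-21 by 0.41 (adjusted p = 0.95, with the block 0.0168). Egln2 was lower with IL-2 than with IL-21 by 0.24 (adjusted p = 0.46, with the block 0.0365, 21.4%). The Egln3 difference between IL-2 and IL-7 stood beside 11.1% of all genes with the block.

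Over the 18 arrays, after the mean of each replicate number was taken out, the 3 genes with values most like those of Epas1 were Pros1, Azin2 and Il4ra (Pearson r of 0.98 for each). They were picked from 1522 genes above the background level whose group means spread by at least 1, and the points share arrays, groups and normalization. Il4ra, the IL-4 receptor alpha chain, was 10.96, 11.58 and 10.67 with IL-4 and 8.98, 9.92 and 8.38 in media control. Pros1, Azin2 and Il4ra had their highest means with IL-4 (10.3, 9.11 and 11.07). In every other group their means were at most 7.83, 6.94 and 9.73. Their r with Epas1 thus rests largely on the IL-4 arrays, whose Epas1 level was known beforehand, and nothing is read from it. Those most like Egln3 were Aimp2, a scaffold protein of the tRNA synthetase complex, Hk2, hexokinase 2, and Ero1a, an oxidase of the endoplasmic reticulum (r of 0.97 for each). Hk2 and Ero1a are known HIF targets. Those most like Egln1 were 2500002B13Rik (0.90), Abhd18 (0.84) and Fam162a (0.83), and those most like Hif1a were Cd2, Plin2 and Castor2 (0.81, 0.81 and 0.78). For Arnt they were Jun, Trim12c and Pygl (0.77, 0.70 and 0.70), for Egln2 Zbtb42, Zbtb4 and Ly6e (0.84, 0.80 and 0.79), for Vhl Carns1, Lrig1 and Ccdc28b (0.82, 0.77 and 0.73), and for Hif1an Trim12c, Zfyve27 and Rmnd5a (each 0.82). Among the members, Egln1 and Egln3 had an r of 0.65 and Epas1 and Hif1a one of -0.63 over the same 18 arrays. The r of Epas1 and Hif1a rests largely on the IL-4 arrays, where Epas1 was known to be high and Hif1a had its lowest mean. No relation of these 2 genes is read from it.

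The genes around the 8 were read from lists, which like the members were drawn up with earlier results known. Of 48 known HIF targets 45 were measured, Egln1 and Egln3 not being on the list, and 40 lay above the background level. With IL-2, 22 were higher and 1 lower (51.1% of the list), with IL-4 21 higher (46.7%), with IL-21 16 higher (35.6%) and with IL-7 14 higher (31.1%), and none was lower with these 3, while with IL-15 none passed in either fit. The shares of all genes that passed were 15.8%, 9.07%, 6.67% and 1.68% with IL-2, IL-4, IL-21 and IL-7. Of the 45, 24 were higher with at least 1 cytokine and 21 with none. The median change of the list was 0.51 for IL-15 and 0.80, 0.83, 0.91 and 0.95 for IL-21, IL-7, IL-4 and IL-2, beside medians over all genes between -0.02 and 0.01. With the block, 32, 33, 33 and 32 targets were higher with IL-2, IL-4, IL-7 and IL-21, and 2 lower with IL-2, where 30.6%, 25.8%, 16.3% and 21.1% of all genes passed with these 4 cytokines. With IL-15, 17 of the 45 had all 3 arrays above all 3 control arrays, as 1.8% of all genes did.

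The 12 targets that rose with all 4 cytokines other than IL-15, a set that rests on the IL-7 calls, were the glucose transporter Slc2a1, the glycolytic enzymes Hk2, Tpi1, Pgam1 and Ldha, the mitophagy receptor Bnip3, the angiogenic factor Vegfa, the adenylate kinase Ak4, the transcriptional repressor Bhlhe40, Ero1a, Higd1a and Fam162a. Hk2 was 8.72, 8.54 and 7.83 in media control and 11.39, 11.44 and 10.71 with IL-2, and its rise was 2.82 with IL-2, 2.34 with IL-21, 2.06 with IL-7 and 2.04 with IL-4. Bnip3 was 11.47, 11.54 and 9.91 in media control and 12.90, 13.44 and 13.07 with IL-4, a rise of 2.16. Ak4 had rises of 2.36, 2.12 and 2.20 with IL-2, IL-4 and IL-7, and Slc2a1 rises of 1.61 with IL-7 and 1.85 with IL-21. Ero1a had rises of 1.88 (IL-21) and 2.29 (IL-2). P4ha2, a collagen prolyl hydroxylase, rose by 2.31 to 2.77 (IL-21, IL-4 and IL-2) from a control mean of 5.69, which is under the background level, as is that of Vegfa, so these sizes are not exact. Like Egln3, Hk2 had its highest mean with IL-2 and its lowest among the cytokines with IL-15, where its levels were 9.58, 9.16 and 9.75. Without IL-7 replicate 1 or IL-7 replicate 2, only 3 and 2 targets of the list passed with IL-7. The 1 target that fell was Narf, from 9.18 to 8.31 with IL-2 (-0.87).

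**Figure D5:**
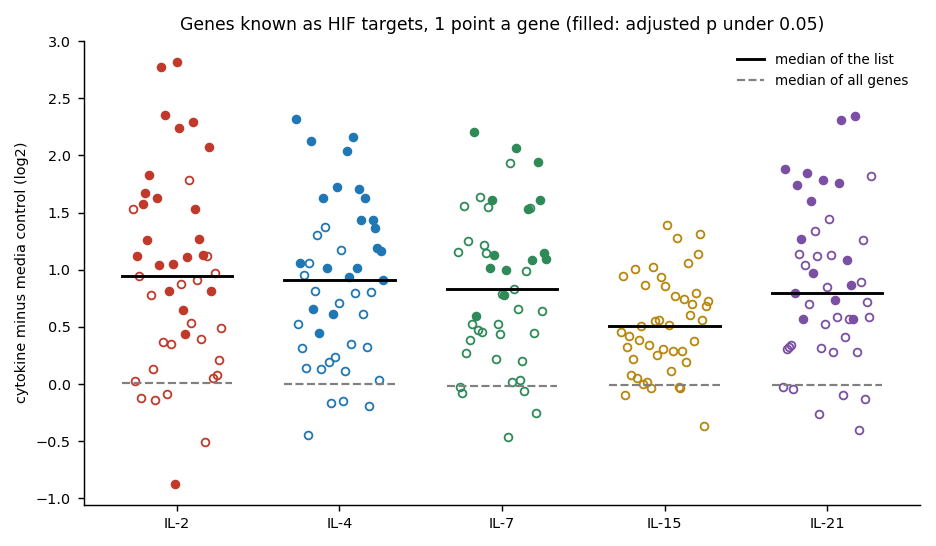
Changes of the 45 measured HIF target genes with each cytokine against media control (vertical axis, log2), 1 point a gene, with points spread sideways for visibility. Filled points have a limma adjusted p under 0.05, the black line is the median of the list and the dashed grey line that of all genes. The median of the list lies from 0.51 with IL-15 to 0.95 with IL-2, and no point is filled with IL-15.

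Of 12 measured genes that are tied to EPAS1 in other tissues, 2 lay above the background level and none passed with any cytokine, IL-4 included, in the fit without the block. With the block 2 were lower with IL-2 (Slc11a2 and Slc40a1) and 1, Ccnd1, lower with IL-4 and with IL-7. In that fit 30.6%, 25.8% and 16.3% of all genes passed with IL-2, IL-4 and IL-7. Slc40a1 and Ccnd1 lay under the background level, so no change is read from them. The iron transporter Slc11a2 was 8.51, 8.62 and 8.07 with IL-4 and 8.67, 8.93 and 8.20 in media control, and Angptl4, a regulator of lipoprotein lipase, was 7.73, 7.66 and 7.98 with IL-4 and 7.70, 7.57 and 8.29 in media control. Both genes overlapped with media control. With IL-4 the median change of these 12 genes was -0.02.

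Among 12 relatives of the HIFs in the bHLH-PAS family, Clock, a circadian factor, was higher with IL-2 by 0.70 (SE 0.19, adjusted p = 0.0188). The Clock mean in media control, 6.56, is under the background level, so this size is not exact. Ahr, the aryl hydrocarbon receptor, passed with IL-21 (adjusted p = 0.00752), with levels of 6.56, 6.44 and 6.42 and at 5.25 or lower on every other array, all under background, so no change is read from it. No other relative passed without the block, and with it Arntl was lower with IL-2, Npas2 higher with IL-7 and Clock higher with IL-21. Of the 6 measured partners of VHL, the scaffold Cul2 was higher with IL-2 by 1.01 (SE 0.17, adjusted p = 8.2e-04) and the adaptor Elob higher with IL-21 by 0.46 (SE 0.10, adjusted p = 0.0116). With the block 3, 2, 1 and 4 partners were higher with IL-2, IL-4, IL-7 and IL-21. Of 13 coactivators and stability factors, Siah2, a ligase that degrades prolyl hydroxylases, rose with IL-2 (1.12, adjusted p = 4.1e-04) and IL-4 (0.75, adjusted p = 0.0121), and the chaperone Hsp90aa1 with IL-2 (0.80), IL-4 (0.55) and IL-21 (0.47, adjusted p = 0.0481). Os9 fell with IL-2 (-0.89), and the coactivator Ncoa1 fell with IL-4 (-0.57) and IL-21 (-0.50), where the coactivator Ep300 rose (0.66). With the block 4 were higher and 4 lower in the IL-2 comparison, 4 higher and 2 lower in those of IL-4 and IL-21, and 2 higher and 2 lower in that of IL-7. Of 15 other oxygen-dependent dioxygenases 1 passed without the block, Jmjd6, with IL-2 (1.02, SE 0.31, adjusted p = 0.0358). With the block 4, 5, 3 and 4 were higher with IL-2, IL-4, IL-7 and IL-21, Jmjd6 and the RNA demethylase Alkbh5 with each of these. Of all genes 15.8%, 9.07%, 1.68% and 6.67% passed with IL-2, IL-4, IL-7 and IL-21, and 30.6%, 25.8%, 16.3% and 21.1% with the block. The counts of the lists in this and the next paragraph stand beside these shares.

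Of 12 genes of the PI3K and mTOR pathway, an input to HIF-1α in T cells, Eif4ebp1, a translation inhibitor that mTOR inactivates, rose with IL-2, IL-4, IL-7 and IL-21, by 2.04, 1.42, 1.25 and 1.03 (SE 0.25, adjusted p = 5.8e-05, 0.00172, 0.019 and 0.0176). With IL-15 its change was 0.72 and did not pass. Rictor, a subunit of mTORC2, fell with IL-2 (-0.57, SE 0.16, adjusted p = 0.0222), and the other 10 genes had no change that passed without the block. With the block 2 were higher and 2 lower in the IL-2 comparison, 2 higher and 4 lower in that of IL-4, 2 higher and 3 lower in that of IL-21 and 1 higher in that of IL-7, among them Rheb, the activator of mTORC1, higher with IL-2 and IL-4. No gene of these lists passed with IL-15 in either fit.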

How the data were processed

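RNA of 18 samples was hybridised to Affymetrix Mouse 430 2.0 arrays. The deposited values are log2 expression, which the authors made from the array images with RMA. The submitters' processing notes name Affymetrix GeneChip Command Console 3.1.1 and Expression Console 1.1. RMA corrects background and normalizes the arrays that are processed together. The medians of 3 arrays lay lower, as given above, so the 18 arrays as deposited do not share a common scale. A fold change of a dim probe set can be understated, and the number of arrays limits the precision. Why 3 arrays lay lower is not given in the sources used here. Some probe sets had equal deposited values on more than 1 of these 3 arrays, among them the main ones of Epas1, Arnt, Egln2 and Vhl. Differences between arrays with equal deposited values arose in the quantile normalization, and what made the values equal was not tested. All 45101 probe sets were quantile normalized (limma 3.58.1 in R 4.3.3, with the data.table package, version 1.17.8). A platform annotation listed 35890 of them, 34958 with 1 gene symbol and 932 with several, which were not used, and 9211 were unnamed here. Each of 18194 genes stands by its probe set of highest mean.

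Group means were fitted with lmFit and eBayes over all 6 groups (12 residual degrees of freedom) for 5 comparisons with media control and 10 cytokine pairs, two-sided, with adjustment over all genes. Replicates carry the same numbers in every group. The deviations of same-numbered arrays from their group means correlated with r of 0.442 to 0.856 over 45 pairs, and those of differently numbered arrays reached at most 0.383 over 90 pairs, so the number was taken to pair the samples and the fit was repeated with it as a block. For replicate 3 the number goes with the RNA preparation, so number and preparation cannot be told apart there. In replicate 3, differences of IL-4, IL-7 and IL-21 from media control are between arrays of unlike deposited scale. Probe sets were tested in a fit over all probe sets. The code was tested on simulated data. Named are the 8 members, up to 4 genes of the largest change among those that pass per list and cytokine, and the 3 genes most like each member. The members, lists and rules were chosen with earlier results of these data known. The background level is set at the 95th percentile of 37 tissue genes foreign to T cells, and 40 of 45 HIF targets lay above it. No 2 columns were identical, and 0 columns belonged to other samples. B cell, dendritic cell, NK cell, CD4 T cell and red cell markers were read too, with 1, 0, 0, 1 and 1 genes above the background level. Alternatives were the deposited values, median centring, the block, arrays left out, a filter on low levels, the compared groups alone, all probe sets and the next probe set of a gene. Promoters came from RefSeq. Figures were drawn with matplotlib 3.10.9 and pandas 2.3.3 in Python 3.11.15.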

Additional observations from a re-analysis of the deposited data

How the results depend on the processing

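Of 1052 values computed under the alternatives, 869 kept their direction, side of the threshold or size of a count, 99 that passed no test changed sign, and 0 called values reversed. Median centring, all probe sets, the filter on low levels and leaving out the 3 arrays on the lower scale moved none of the counts of members or HIF targets by over 1.5 times, nor did the next probe set of each member those of members. On the values as deposited, 1, 1, 0 and 1 HIF targets passed with IL-2, IL-4, IL-7 and IL-21, in place of 23, 21, 14 and 16, and 0 members passed with IL-7 and 1 difference between cytokines. With the replicate block, 4, 4, 2 and 3 members passed with IL-2, IL-4, IL-7 and IL-21, 33, 33 and 32 targets with IL-4, IL-7 and IL-21, and 16 differences of members between cytokines in place of 5. Per pair of cytokines, 0.335% to 22.4% of all genes passed with the block, against 0.011% to 8.6% without it. Counts of members with IL-4 and between cytokines hold Epas1 with IL-4, from which nothing is read. As deposited with the replicate block, 2 members passed with IL-21 and 8 differences between cytokines. With only the arrays of the compared groups, 11, 1 and 10 targets passed with IL-4, IL-7 and IL-21, and 0 members with IL-7. Leaving out the lower arrays and using the block, an alternative chosen after seeing the data, gave 4, 4, 2 and 2 members and 37, 36, 35 and 34 targets with IL-2, IL-4, IL-7 and IL-21, and 18 differences between cytokines. Leaving out a replicate gave 1 to 3, 2 to 3, 0 to 2, 1 to 2 and 0 to 0 members for IL-2, IL-4, IL-7, IL-21 and IL-15 in turn, 12 to 30, 6 to 21, 0 to 21, 5 to 22 and 0 to 0 targets, and 0 to 9 differences between cytokines. The share of all genes that passed is given only for the fits of all arrays after quantile normalization, with and without the block. Counts under the other settings are therefore not read as results about the members or targets. The Egln3 rise with IL-7 was not called as deposited (adjusted p = 0.239) or with the compared groups alone (limma, adjusted p = 0.0536), and that of IL-2 over IL-15 not as deposited (adjusted p = 0.758). The cause was not tested. Without replicate 3, the Epas1 change with IL-2 was 1.19 and passed (limma, adjusted p = 0.0304), and without IL-2 replicate 1 it was 0.14. Probe sets under the background level limit what can be said of low genes.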
